A study of Solanum lycopersicum with 12 samples.

Results

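The CBF/DREB transcription factors studied here were 4 gene models of the tomato (Solanum lycopersicum) leaf transcriptome, out of 34075 in the deposited count table. They were taken by identifier and not by their values: Solyc03g026280.3.1 (CBF1), Solyc03g124110.2.1 (CBF2), Solyc03g026270.3.1 (CBF3) and Solyc05g052410.3.1, a DREB2A-type factor. The gene names come with the choice of members, since neither the count table nor the RefSeq gene table pairs these identifiers with names. All 4 passed the filter on low counts and were tested with 20717 gene models in all. RNA sequencing was done on leaves of 12 samples in 4 groups of 3: control plants, plants under salinity, plants under heat, and plants under both stresses at once, here named the combination. The labels state no genotype or cultivar, plant age, salt concentration, temperature, duration, time of sampling or number of plants behind a library, so p-values measure the spread between these libraries only. The leaf label was not checked against marker genes, because the identifiers are not paired with names. In such bulk leaf samples, fewer cells that express a gene and less RNA per cell cannot be told apart.

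CBF factors, also called DREB1, belong to the AP2/ERF family and bind the dehydration-responsive element in the promoters of their target genes. In Arabidopsis they are known as fast and short-lived switches of cold acclimation that are activated by ICE1, gated by the circadian clock, and followed by the rise of dehydrins and other protective proteins. DREB2A-type factors bind the same element, and the Arabidopsis DREB2A is known for its role in drought, salt and heat responses, where it activates the heat shock factor gene HsfA3.

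Total counts ranged from 56281339 to 78370751 per library, and levels are given as CPM, counts per TMM-scaled library size. On this scale 3 counts were worth 0.0326 to 0.0668 CPM, depending on the library. Within groups, pairs of libraries correlated at 0.967 to 0.984 over the tested gene models. Salinity replicate 3, which stood far from its replicate mates in all 3 CBF gene models, correlated at 0.969 and 0.979 with the other salinity libraries. The CBF contrasts that rest on it are given with and without it. Salinity replicate 3 was singled out by its values in these same gene models, so p-values without it are descriptive only.

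CBF1, in Arabidopsis an activator of cold acclimation genes, stood at 10.9, 4.06 and 10.3 CPM in control replicates 1, 2 and 3. Under salinity it stood at 2.07, 1.87 and 25.1 CPM. Replicates 1 and 2 of salinity thus lay below every control library and replicate 3 above every one. CBF2, a factor of the same type, showed the same split, with 3.27, 2.76 and 3.60 CPM in control and 0.306, 0.713 and 12.8 CPM under salinity. CBF3, the third of the CBF gene models, had 0.542, 0.390 and 0.329 CPM in control and 0.238, 0.0445 and 3.35 CPM under salinity, where the lowest library held only 2 counts. Again the first 2 salinity libraries were below, and the third above, all control libraries.

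**Figure D1:**
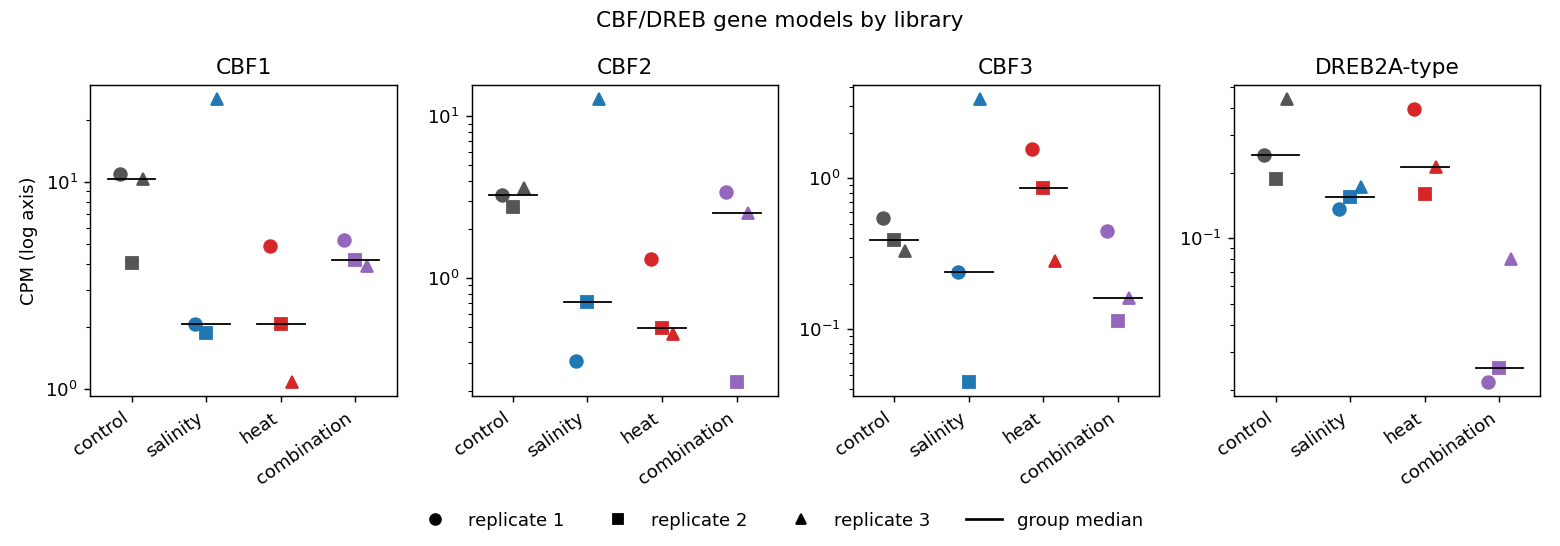
CPM (log axis, with its own range in each panel) of CBF1, CBF2, CBF3 and the DREB2A-type gene model in the 12 libraries, with symbols for replicates and a line at the group median. Salinity replicate 3 is the highest library for each CBF gene model, at 25.1, 12.8 and 3.35 CPM, and the 3 combination libraries are the lowest for the DREB2A-type gene model.

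Of the 4 members, 0 were called in salinity against control by edgeR's quasi-likelihood F test, adjusted after Benjamini and Hochberg over the whole table, beside 47.4% of all tested gene models. At an unadjusted p under 0.05 the number was also 0, as was that of the DESeq2 Wald test, which gave no p for CBF1. The log2 fold changes were 0.20 (SE 0.83) for CBF1, 0.53 (SE 1.07) for CBF2 and 1.54 (SE 1.06) for CBF3, with adjusted p of 0.854, 0.707 and 0.248. These means describe no salinity library well, since the coefficient of variation within salinity was 138% for CBF1, 154% for CBF2 and 153% for CBF3. In control it was 45.1%, 13.2% and 26.2%.

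The direction of all 3 CBF gene models turned when salinity replicate 3 was left out. CBF1 was then lower in salinity, with a mean of 1.97 CPM against 8.45 CPM in control, which is 4.28-fold (log2 fold change -2.10, SE 0.58, adjusted p 0.0135 by edgeR's test). CBF2 was 6.30-fold lower (log2 fold change -2.67, SE 0.91, adjusted p 0.0326). CBF3 was 2.98-fold lower without passing the test, at a log2 fold change of -1.50 (SE 0.88, adjusted p 0.187). In that fit 43.6% of all tested gene models were called, and the 2 salinity libraries left were assumed to vary like the other groups. CBF1 and CBF2 were each called in only this 1 of the 12 refits that left out 1 library. In salinity replicate 3 itself, the level was 2.97 times the control mean for CBF1, 3.99 times for CBF2 and 7.96 times for CBF3.

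The height of salinity replicate 3 over its mates was unusual for that library. CBF1 was 12.1-fold, CBF2 18.0-fold and CBF3 14.1-fold above the higher of replicates 1 and 2. Out of 20717 tested gene models, only 9, 5 and 8 had a larger fold in this library than CBF1, CBF2 and CBF3. A fold of at least 4 over both mates was found for 94 gene models (0.454%) in salinity replicate 3, compared with 19 to 239 gene models in the other 11 libraries. The DREB2A-type gene model was 1.10-fold above the higher mate there. The pattern of replicates 1 and 2 below and replicate 3 above all control libraries was shared by 167 tested gene models (0.806%). For CBF1 the DESeq2 fit gave a Cook's distance, a measure of how far 1 library pulls the estimate, of 11.0 in salinity replicate 3, above the limit of 7.01 at which the tool withholds the p-value.

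**Figure D2:**
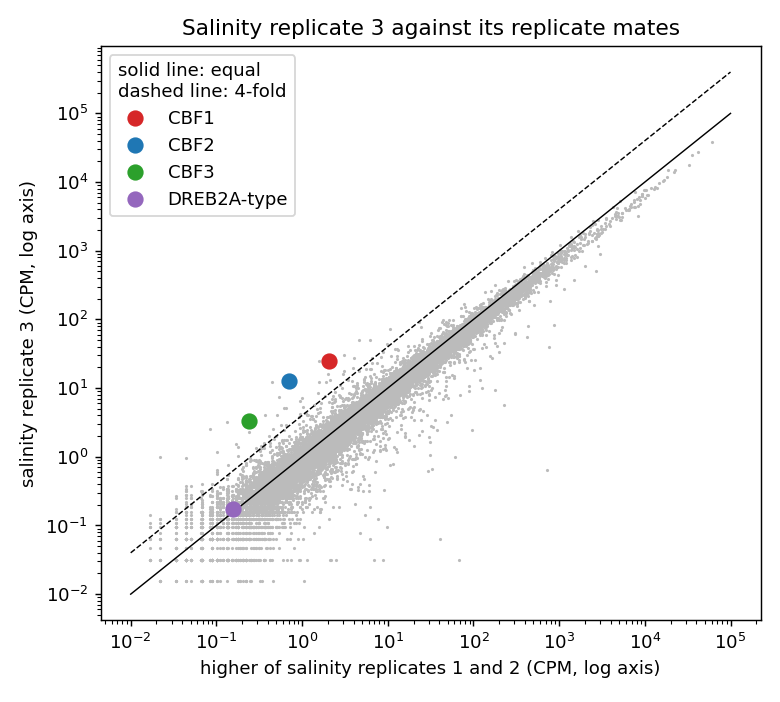
Level in salinity replicate 3 against the higher of salinity replicates 1 and 2, in CPM on log axes, for the tested gene models above 0 on both axes, with lines of equality and of a 4-fold difference. CBF1, CBF2 and CBF3 lie 12.1-, 18.0- and 14.1-fold above equality, at the edge of the cloud of gene models, and the DREB2A-type gene model lies at 1.10-fold.

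Under heat, CBF1 and CBF2 had lower levels than in control and CBF3 did not. CBF1 stood at 4.90, 2.06 and 1.08 CPM in heat replicates 1, 2 and 3, a 3.15-fold lower mean than in control, and only heat replicate 1 reached into the range of the control libraries. CBF2 stood at 1.30, 0.493 and 0.450 CPM, all below the control libraries, with a mean 4.29-fold lower. All heat libraries below all control libraries was a pattern of 23.3% of the tested gene models. CBF3 stood at 1.56, 0.863 and 0.281 CPM, so that replicates 1 and 2 lay above and replicate 3 below the control range.

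In the fit over all 12 libraries, 0 of the 4 members were called in heat against control, beside 39.9% of all tested gene models, and 0 had an unadjusted p under 0.05. The DESeq2 Wald test called 0 as well, with no p for CBF1. The log2 fold change was -1.65 (SE 0.85, adjusted p 0.138) for CBF1, -2.10 (SE 1.13, adjusted p 0.155) for CBF2 and 1.10 (SE 1.05, adjusted p 0.421) for CBF3 by edgeR's test. The fit shares its estimate of the spread over all groups, the salinity group included. Without salinity replicate 3, which is no library of this contrast, CBF1 and CBF2 were called at the same log2 fold changes of -1.65 (SE 0.49, adjusted p 0.0214) and -2.10 (SE 0.73, adjusted p 0.0417), with 38.5% of all gene models called. A fit restricted to the heat and control libraries called the same 2, with log2 fold changes of -1.76 and -2.20 and adjusted p of 0.0296 and 0.00422 in edgeR's test, beside 42.3% of all gene models. Of the 12 refits that left out 1 library, only that without salinity replicate 3 called CBF1 or CBF2 here.

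In the combination the means of the CBF gene models were 1.90-fold (CBF1), 1.56-fold (CBF2) and 1.75-fold (CBF3) lower than in control, and 0 of the 3 passed the test, where 32.5% of all tested gene models did. CBF1 stood at 5.22, 4.19 and 3.91 CPM, the narrowest range of any group for this gene model, with a coefficient of variation of 15.4%. Its log2 fold change against control was -0.92 (SE 0.84, adjusted p 0.424 by edgeR's test). CBF2 stood at 3.42, 0.227 and 2.52 CPM, so that combination replicate 2 was low while the other two were near the control libraries. CBF3 stood at 0.446, 0.113 and 0.161 CPM. The log2 fold changes of CBF2 and CBF3 against control were -0.64 (SE 1.08, adjusted p 0.685) and -0.78 (SE 1.10, adjusted p 0.620) in the same edgeR test.

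Setting the combination against the single stresses gave no call for a CBF gene model in edgeR's test, beside 40.3% of all tested gene models against heat and 44.5% against salinity. Against heat the log2 fold changes were 0.73 (SE 0.84) for CBF1, 1.46 (SE 1.12) for CBF2 and -1.88 (SE 1.07) for CBF3, with adjusted p of 0.506, 0.312 and 0.177. Without salinity replicate 3 the value for CBF3 was -1.88 (SE 0.70) with an adjusted p of 0.0501. Against salinity the 3 values were -1.13, -1.17 and -2.33, and all 3 turned positive without salinity replicate 3, at 1.17, 2.03 and 0.72, with adjusted p of 0.121, 0.0899 and 0.543. The DESeq2 Wald test called CBF3 lower in the combination than in salinity over all 12 libraries, at a log2 fold change of -2.36 and an adjusted p of 0.0402. Heat against salinity had 0 of 4 members called by edgeR's test beside 68.4% of all tested gene models, with 1 at an unadjusted p under 0.05, which was CBF2 at a log2 fold change of -2.62 (SE 1.15, adjusted p 0.0577). The DESeq2 Wald test called CBF2 in that contrast, at -2.72 and an adjusted p of 0.0386. Shares of all gene models called by the Wald test in this contrast and in combination against salinity are not given here. The shares above are those of edgeR's test. When salinity replicate 3 was left out, the CBF2 value was 0.58, and CBF3 was called instead, higher in heat, at 2.60 (SE 0.88, adjusted p 0.0222 by edgeR's test), in a fit that called 64.3% of all gene models. With 1 library left out at a time, CBF3 was called in 1 of 12 refits, and CBF1 and CBF2 in 3 each.

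The interaction compares the log2 effect of heat in the presence of salinity with that in its absence. It was called for 0 of the 4 members and for 8.94% of all tested gene models by edgeR's test, and 1 member had an unadjusted p under 0.05. That member was CBF3, with an interaction of -3.42 (SE 1.51, adjusted p 0.171). The DESeq2 Wald test called 0 members, with no p for CBF1. Without salinity replicate 3, the CBF3 value was -0.38 (SE 1.12, adjusted p 0.864), whereas that of CBF1 moved from 0.52 (SE 1.18) to 2.82 (SE 0.75) with an adjusted p of 0.0450, and that of CBF2 from 0.93 (SE 1.54) to 4.13 (SE 1.16) with an adjusted p of 0.0528. In that fit 7.28% of all gene models had an interaction call. The CBF1 interaction was called in only this 1 of the 12 refits that left out 1 library.

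**Figure D3:**
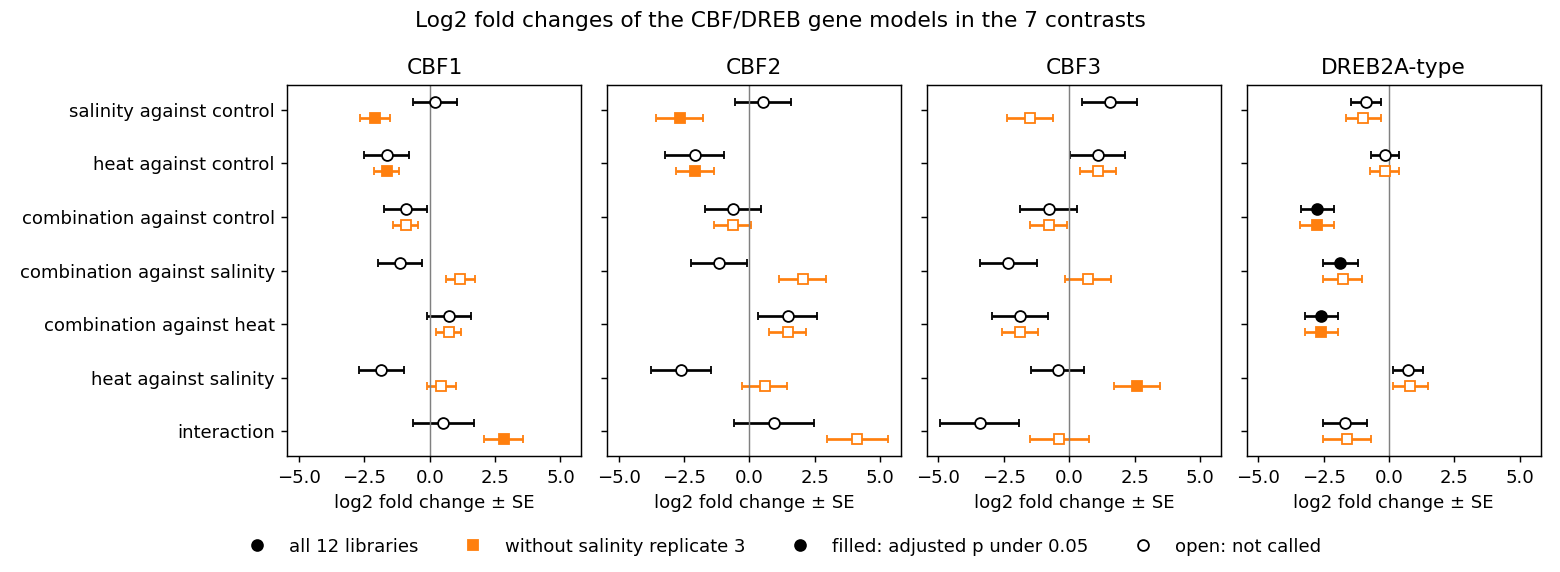
Log2 fold change with its SE (horizontal axis) of each gene model in the 7 contrasts (vertical axis), from all 12 libraries (circles) and without salinity replicate 3 (squares), filled for an adjusted p under 0.05 in edgeR's test. The CBF values that involve the salinity group change sign or size between both fits, as for CBF1 in salinity against control (0.20 and -2.10), whereas the DREB2A-type values stay close.

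The order of the group means for CBF1 and CBF2 was heat, combination, control and salinity from low to high, and for CBF3 combination, control, heat and salinity. No neighbours in these orders differed beyond their spread, with adjusted p between 0.312 and 0.854 in edgeR's test. The top place of salinity came from replicate 3 alone, since its mates lay below all control libraries.

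The DREB2A-type gene model was the member with calls: it fell in the combination against each of the other groups. Its counts were low throughout, with 2 combination libraries under 3 counts. It held 13, 13 and 24 counts in control replicates 1, 2 and 3, or 0.243, 0.188 and 0.438 CPM. In the combination it held 2, 2 and 6 counts, or 0.0217, 0.0252 and 0.0807 CPM. All combination libraries lay below all 9 others, a position held by 469 of all tested gene models (2.26%).

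Against control the mean of the DREB2A-type gene model was 6.81-fold lower in the combination, at a log2 fold change of -2.74 (SE 0.63, adjusted p 0.00595) by edgeR's test. It was the only one of the 4 members called there, beside 32.5% of all tested gene models in either direction and 15.1% as lower. Against heat, where it stood at 0.396, 0.160 and 0.214 CPM, the mean was 6.03-fold lower, at a log2 fold change of -2.58 (SE 0.63, adjusted p 0.00741), beside 40.3% of all gene models called and 23.4% as lower. Both calls held in each of the 12 refits that left out 1 library, with adjusted p of at most 0.0277 and 0.0362, and in the 8 other alternatives. The summed counts were 10 in the combination, 50 in control and 66 in heat. After scaling for depth the combination held 14.4% of the control level (95% exact interval from 6.53% to 28.8%) and 15.8% of the heat level (7.23% to 30.9%), intervals that cover counting error only. In each library 66.0% to 69.8% of the counts up to 20 were even, so both mates of a read pair may have been counted, and the intervals would then be too narrow.

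Against salinity, where the DREB2A-type gene model stood at 0.136, 0.156 and 0.172 CPM, the mean in the combination was 3.63-fold lower. The log2 fold change was -1.86 (SE 0.66) and the adjusted p 0.0360 by edgeR's test, beside 44.5% of all gene models called and 20.1% as lower. This call was lost in 5 of the 12 refits without 1 library and in 3 of the 8 other alternatives, where the log2 fold changes lay between -2.64 and -1.43 and the adjusted p reached 0.129. The value without salinity replicate 3 was -1.77 (adjusted p 0.0835). Neither single stress gave a call: the log2 fold change was -0.89 (SE 0.57, adjusted p 0.217) in salinity, or -0.98 (adjusted p 0.266) without salinity replicate 3, and -0.16 (SE 0.54, adjusted p 0.824) in heat against control, although all salinity libraries lay below all control libraries, as for 27.9% of all gene models. The interaction of -1.69 (SE 0.84) did not pass the test, with an adjusted p of 0.227. From low to high the order of means was combination, salinity, heat and control, and only the first step, combination to salinity, was called.

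The balance among the CBF gene models within a library is a measure that no scaling of libraries touches. Ratios of counts are given here for the comparison of libraries, not of the gene models with each other, since gene lengths were not used. The count of CBF3 amounted to 31.8%, 41.9% and 26.0% of that of CBF1 in heat replicates 1, 2 and 3. In control it was 4.96%, 9.61% and 3.18%, in salinity 11.5%, 2.38% and 13.3%, and in the combination 8.54%, 2.70% and 4.12%. All 3 heat libraries, from 26.0% to 41.9%, thus lay above the 9 others, which reached at most 13.3%. How often ratios of other gene models separate the heat libraries in this way was not tested. Among single tested gene models, all heat libraries lay above all control libraries for 34.0% and below them for 23.3%. For the CBF3 to CBF1 ratio, the lower 95% exact bound of the lowest heat library was 16.1% and the upper bound of salinity replicate 3 was 15.4%. The bounds of salinity replicates 1 and 2 reached 20.0% and 8.87%, the latter from only 2 counts of CBF3. All intervals of ratios cover counting error only. They too would be too narrow if both mates of a read pair were counted.

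On the log2 scale the mean CBF3 to CBF1 ratio was 2.61 higher in heat than in control, with an exact two-sided permutation p of 0.1, the smallest that 3 libraries against 3 can give, and an adjusted p of 0.36 over the 18 comparisons of ratios. The ratio was 2.84 lower in the combination than in heat, with the same p of 0.1 and 0.36. Leaving out heat replicate 1, the library with the highest CBF levels of its group, moved the geometric mean ratio in heat from 32.6% to 33.0%. The geometric mean was 5.33% in control, 7.14% in salinity and 4.57% in the combination. This ratio was chosen for description after its values were seen.

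The CBF2 to CBF1 ratio showed no such pattern. It was 29.9%, 68.0% and 34.8% in control and 26.6%, 24.0% and 41.7% in heat. In salinity it was 14.8%, 38.1% and 51.0%, and in the combination 65.6%, 5.41% and 64.3%. The groups overlapped in all 6 comparisons. The exact permutation p was between 0.4 and 1. Combination replicate 2 stood apart through CBF2, at 18 counts of CBF2 beside 333 of CBF1. In salinity replicate 3, where all 3 CBF gene models were high, the ratios of 13.3% and 51.0% were above those of its mates. The ratio of 13.3% lay within the counting interval of replicate 1 (6.09% to 20.0%) and outside that of replicate 2 (0.284% to 8.87%). That of 51.0% lay within the interval of replicate 2 (24.5% to 57.9%) and outside that of replicate 1 (8.46% to 24.3%).

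The CBF3 to CBF2 ratio was 119.6%, 175% and 62.5% in heat and 16.6%, 14.1% and 9.14% in control. It was 77.8%, 6.25% and 26.2% in salinity and 13.0%, 50.0% and 6.42% in the combination. The heat libraries lay above all control and all combination libraries, with an exact two-sided permutation p of 0.1 and an adjusted p of 0.36 for each, and overlapped with salinity (p 0.2, adjusted p 0.6). How often ratios of other gene models separate these groups was not tested.

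**Figure D4:**
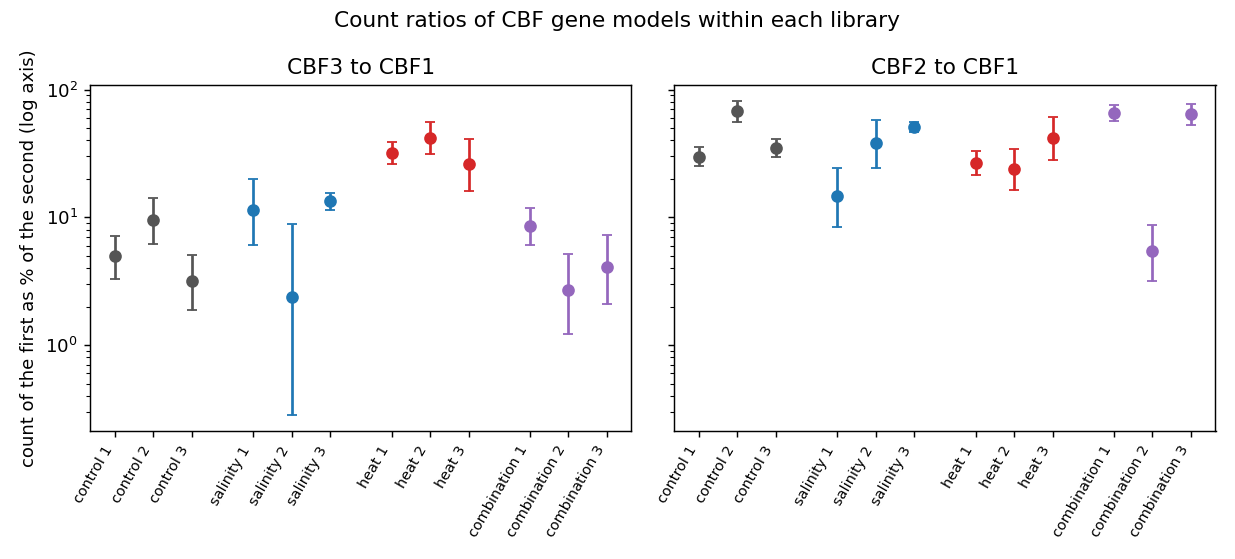
Count of CBF3 (left) and of CBF2 (right) as a percentage of the count of CBF1 in each of the 12 libraries, on a log axis, with 95% exact intervals for counting error. For CBF3 the 3 heat libraries lie at 26.0% to 41.9%, above all others, and for CBF2 combination replicate 2 is low at 5.41%.

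Reads of near-identical CBF copies may have been split between gene models to an extent that was not tested, because the handling of reads with several matches is not stated in the labels.

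Other genes of the pathway were followed with 20 identifiers, entered by general knowledge of the tomato annotation as upstream regulators (5) and as targets (15). Their names were not checked, since neither table pairs identifiers with names. Results are given by identifier, and a name or role stands only for what an identifier was entered as. Of the 20, 19 were in the count table and 18 were tested. The identifier entered as MYB15, Solyc09g090790.3.1, was in the table but did not pass the filter on low counts. The upstream list covers ICE1-type factors, PIF4, MYB15 and the clock gene LHY, which in Arabidopsis act on CBF promoters. Of its 4 tested gene models, 0 were higher and 2 lower in salinity, 2 higher and 1 lower in heat, and 0 higher and 2 lower in the combination, each against control by edgeR's test, where 47.4%, 39.9% and 32.5% of all tested gene models were called. The median log2 fold changes were -0.80, 0.39 and -0.34, beside 0.04, 0.14 and 0.03 over all tested gene models. Leaving out salinity replicate 3 gave 3 lower calls in salinity, and leaving out salinity replicate 1 gave 1. With each of the 12 libraries left out in turn, a choice made after the data were seen, 1 to 3 were called in salinity, 1 to 3 in heat and 1 to 2 in the combination.

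One upstream identifier, Solyc03g118310.4.1, was lower in all 3 stress groups. Its mean (± SD, n = 3 each) was 6.40 ± 1.13 CPM in control, 2.78 ± 1.10 under salinity, 2.05 ± 0.414 under heat and 1.75 ± 1.06 under both. The log2 fold changes against control were -1.21 (SE 0.40), -1.64 (SE 0.40) and -1.87 (SE 0.40), with adjusted p of 0.0247, 0.00805 and 0.00406 by edgeR's test. The calls in heat and in the combination held in each of the 12 refits without 1 library, and that in salinity in 9 of them. Without salinity replicate 1 the salinity value was -0.91, with an adjusted p of 0.0802. By contrast, Solyc06g068870.3.1 was not called in salinity, heat or the combination, at -0.24, 0.10 and 0.10 (adjusted p 0.350, 0.712 and 0.748 by edgeR's test). Solyc07g043580.4.1 was higher in heat (0.69, adjusted p 0.0281) and lower in the combination (-0.79, adjusted p 0.0176) by that test. Its value in salinity was -0.39 (adjusted p 0.169). Another, Solyc10g005080.3.1, moved in opposite directions, from 47.2 ± 12.1 CPM in control to 17.2 ± 1.74 in salinity and 93.3 ± 25.1 in heat (mean ± SD, n = 3 each), with log2 fold changes of -1.46 (SE 0.27, adjusted p 0.00103) and 0.98 (SE 0.26, adjusted p 0.0124) in the same edgeR test. Its 3 salinity libraries lay between 15.3 and 18.7 CPM, so that salinity replicate 3 did not stand apart in it. Of the 4 tested upstream gene models, 3 lay above both mates in salinity replicate 3, beside 27.9% of all tested gene models. By at least 2-fold it was 0 of them, beside 2.19%, and the largest fold was 1.49, for Solyc06g068870.3.1.

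The target list covers dehydrins and the protein LE25, galactinol synthases, HsfA3, DELLA and gibberellin 2-oxidases, all of which have been placed downstream of CBF or DREB2 factors in Arabidopsis or in other plants. Of its 14 tested gene models, 3 were higher and 1 lower in salinity, 1 higher and 3 lower in heat, and 3 higher and 2 lower in the combination, beside the same 47.4%, 39.9% and 32.5% of all tested gene models. The median log2 fold changes were 0.71, -0.02 and 0.62, beside 0.04, 0.14 and 0.03 over the whole table. Leaving out salinity replicate 3 gave 3 higher and 0 lower in salinity, with a median of 0.41, and leaving out salinity replicate 1 gave 1 higher and 0 lower. With 1 library left out at a time, 1 to 6 targets were called in salinity, 1 to 5 in heat and 2 to 7 in the combination. The call of Solyc07g061720.3.1 in salinity (1.28, adjusted p 0.00440 in edgeR's test) held in all 12 refits. So did those of Solyc05g053340.4.1 in heat (-2.84, adjusted p 0.0137) and the combination (-3.54, adjusted p 0.00670). Its counts were low, with 33, 12 and 23 in control, 10, 0 and 4 in heat, and 2, 4 and 2 in the combination. The call of Solyc02g062590.3.1 in the combination (6.50, adjusted p 0.00319) also held in all 12. It had 0, 8 and 2 counts in control and 70, 1073 and 80 in the combination, where replicate 2 carried most of the mean. The other target calls against control were lost in some refits. In the interaction 0 of the 14 targets and 0 of the 4 upstream gene models were called, beside 8.94% of all tested gene models. Without salinity replicate 1, the target Solyc02g084850.3.1 was called there at 5.57 (adjusted p 0.0136 in edgeR's test) and the upstream Solyc07g043580.4.1 at -1.20 (adjusted p 0.0443), the latter in 3 of the 12 refits.

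Of the 4 tested gene models listed as dehydrins and LE25, 2 were called in salinity, beside 47.4% of all tested gene models, and both peaked in another salinity library than the CBF gene models. Solyc02g084850.3.1 stood at 722, 1.02 and 0.641 CPM in salinity replicates 1, 2 and 3, and Solyc10g078770.2.1 at 40.7, 0.111 and 0.0626 CPM. In control they stood between 0.563 and 4.84 CPM and between 0.0561 and 0.402 CPM. Their calls in salinity, at log2 fold changes of 6.89 (SE 2.06, adjusted p 0.0154) and 6.24 (SE 1.91, adjusted p 0.0173) by edgeR's test, were lost without salinity replicate 1, where the values turned to -1.31 and -1.07 with adjusted p of 0.197 and 0.484. In the combination Solyc02g084850.3.1 stood at 33.6, 19.1 and 33.0 CPM, above all control and heat libraries. All combination libraries lay above all control libraries for 25.0% of all tested gene models, and above all heat libraries for 26.4%. The log2 fold change of Solyc02g084850.3.1 in the combination against control was 3.81 (SE 1.81, adjusted p 0.125 by edgeR's test). Only the refit without salinity replicate 1 called it, at 3.80 (adjusted p 0.00146). Solyc10g078770.2.1 stood at 0.272, 0.705 and 0.444 CPM in the combination. In salinity replicate 3, where the CBF gene models were at their highest, 5 of the 14 tested targets lay above both mates, 1 of them by at least 2-fold and 0 by at least 4-fold, beside 27.9%, 2.19% and 0.454% of all tested gene models. In salinity replicate 1 the numbers were 7, 3 and 3 of 14, beside 37.6%, 3.47% and 0.854%.

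The single gene model entered as HsfA3, Solyc09g009100.4.1, was close to constant. Its mean (± SD, n = 3 each) was 51.7 ± 7.50 CPM in control, 56.5 ± 11.3 under salinity, 54.8 ± 2.85 under heat and 59.1 ± 3.64 under both. Its log2 fold change in the combination was 0.19 (SE 0.16, adjusted p 0.380 by edgeR's test), where the DREB2A-type gene model fell.

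Likeness of pattern was measured as the root mean square difference between log2 CPM profiles over the 12 libraries, each centred on its own mean, among those gene models whose mean reached 1 CPM. The closest to CBF1 was Solyc04g077980.1.1 at 0.56, where the median over all 16409 candidates was 1.32. The closest to CBF2 was Solyc11g071740.2.1 at 0.77 (median 1.75), to CBF3 Solyc08g005610.3.1 at 0.89 (median 1.51), and to the DREB2A-type gene model Solyc04g080130.3.1 at 0.45 (median 1.09). Among the members, CBF1 and CBF2 were closest to each other at 0.96, which placed CBF1 at rank 4 for CBF2 and CBF2 at rank 73 for CBF1. CBF3 differed from CBF1 by 1.24 and from CBF2 by 1.48. The DREB2A-type gene model differed from the 3 CBF gene models by 1.42 to 1.72, more than the flat profile of a constant gene would, at 0.96. A flat profile differed from CBF1 by 1.21, from CBF2 by 1.65 and from CBF3 by 1.44. CBF3 was thus also further from CBF2 than from a flat profile. The DREB2A-type gene model, at 1.42, was slightly closer to CBF3 than a flat profile was. Without salinity replicate 3, the closest to the DREB2A-type gene model was again Solyc04g080130.3.1, at 0.46. For CBF1, CBF2 and CBF3 another gene model was then closest, and those named above fell to rank 9, 3 and 233. CBF1 and CBF2 then differed by 0.981, where a flat profile differed from CBF1 by 0.975 and from CBF2 by 1.41. CBF3 then differed from the DREB2A-type gene model by 1.19, from CBF1 by 1.29 and from CBF2 by 1.55.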

How the data were processed

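Per the labels' protocols, messenger RNA from frozen leaves was enriched on magnetic beads and sequenced as read pairs. The authors deposited a table of raw whole-number counts, with 1 row per gene model. Per the submitters' processing notes, Trimmomatic 0.33 and Bowtie2 2.3.4 were used. The counting program, strandedness and handling of reads with several matches are not given in the sources used here.

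From these counts, edgeR 4.0.16 (R 4.3.3) kept 20717 gene models (filterByExpr), scaled libraries with TMM factors and fitted 1 quasi-likelihood model with the 4 groups to all 12 libraries. Within each of 7 contrasts p-values were adjusted after Benjamini and Hochberg, and an adjusted p under 0.05 is a call. The approximate SE was obtained from the log2 fold change and its F statistic. Profiles are log2 CPM (prior count 2). Alternatives were other scalings, filters, DESeq2 1.42.0, a replicate block, halved counts, only the groups compared, and each library left out. List results with each library left out, likeness without salinity replicate 3 and the ratio without heat replicate 1 were added after the data were seen. The members, the lists, the likeness rule and the rule for naming gene models (the members, the listed identifiers and the most alike) were chosen with earlier results of these data known. Of the 3 most alike, the closest is named. The product-text lists could not be applied, as the RefSeq table (SLM_r2.1) holds no product text.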

Additional observations from a re-analysis of the deposited data

How the results depend on the processing

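Of 213 member values under alternatives that kept all replicates, 202 kept their direction and side of the threshold. Without scaling factors the median over all tested gene models shifted on the log2 scale from 0.14 to 0.44 in heat, from 0.03 to 0.32 in the combination, from 0.08 to 0.50 in combination against salinity, from 0.15 to 0.58 in heat against salinity, from 0.04 to -0.08 in salinity and from -0.06 to 0.06 in the interaction. The DREB2A-type value in heat then turned to 0.15, and 0 members were called in combination against salinity, as without the filter on low counts and with only the groups compared, while the DESeq2 Wald test called 2. Heat against control had 2 called members with only the groups compared, and heat against salinity 1 with DESeq2 size factors and 1 with the Wald test. The interaction had 1103 calls over all gene models without scaling factors and 3409 with the Wald test, against 1852. A replicate block turned the values in salinity against control to -0.086 for CBF1 and -0.26 for CBF2. Deviations correlated at a mean of -0.0113 between libraries with the same number (18 pairs, from -0.480 to 0.350). Between libraries with different numbers the mean was 0.0053 (36 pairs, from -0.386 to 0.430). Whether libraries with the same number were paired cannot be told from these values. The block moved no count of member calls. With 1 library left out, called members ranged from 0 to 2 in salinity against control, heat against control and heat against salinity, and from 0 to 1 in combination against salinity and the interaction. Log2 fold changes ranged from -2.10 to 0.69 for CBF1, -2.67 to 1.08 for CBF2 and -1.50 to 2.09 for CBF3 in salinity against control, from -0.62 to 0.26 for the DREB2A-type gene model in heat against control, from -1.61 to 1.17, -1.76 to 2.03 and -3.14 to 0.72 for CBF1, CBF2 and CBF3 in combination against salinity, and from -2.63 to 0.44, -3.29 to 0.58 and -1.10 to 2.60 in heat against salinity. Calls over all gene models ranged from 4804 to 8804 in heat, 4615 to 7230 in the combination, 4900 to 8931 in combination against heat and 806 to 2066 in the interaction.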
